A study of Mus musculus with 10 samples.

Results

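The 6 genes described here encode the adult haemoglobin chains of the mouse and the enzyme that starts haem synthesis in red cell precursors: Hba-a1 (gene 15122), Hba-a2 (gene 110257), Hbb-b1 (gene 15129), Hbb-b2 (gene 15130), Hbb-bs (gene 100503605) and Alas2 (gene 11656). They were taken by name from the 28059 genes of the files. The counts of Hbb-b1 and Hbb-b2 are identical throughout, so the 6 genes give 5 measurements, and all of them passed the filter on low counts that left 18671 genes to test. RNA sequencing was done on late embryonic (E18.5) mouse brains without the olfactory bulbs, as 10 libraries of polyadenylated RNA read in pairs of 75 bases. The 5 genotypes have 2 libraries each. By the labels QKO lacks COP1, cJun, ETV1 and ETV5, TKO lacks COP1, cJun and ETV1, DKO lacks COP1 and cJun, KO lacks COP1, and the control is heterozygous for COP1, so that every group carries at least 1 altered COP1 allele. COP1 is a ubiquitin ligase, and cJun, ETV1 and ETV5 are transcription factors. No source used here gives a Cre driver, the allele designs, the litters or any pooling of embryos. The library numbers pair nothing. No label says that libraries of 1 genotype are separate embryos, so the p-values refer to the spread between libraries, part of which may be technical.

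Haemoglobin is a tetramer of alpha and beta globin chains, each holding a haem group that binds oxygen. In the late mouse fetus the adult alpha chains come from Hba-a1 and Hba-a2 and the adult beta chains from the Hbb cluster, where the genes and their names differ between mouse strains. Alas2 encodes the erythroid 5-aminolevulinate synthase, the first and rate-limiting enzyme of haem synthesis in red cell precursors, while Alas1 does this step in other cells. A brain makes no red cells, and globin transcripts in brain RNA are usually taken to come from blood in the vessels, with low expression in some neurons also described. In RNA from a whole brain, fewer cells of a type and less RNA per cell cannot be told apart.

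Globin and erythroid haem genes share short promoter elements: CCAAT and CACCC boxes, GATA sites bound by GATA1, and a TATA box. The promoters are shown because the 5 measurements moved together. Each line gives the 150 bases before the RefSeq transcription start on assembly GRCm38.p6, 5′ to 3′ on the gene's own strand. Capitals mark matches on either strand to the CCAAT box, to the CACCC box, to a GATA element (AGATAA or the variant AGATAG, or the same with another first letter, TGATAA or the variant TGATAG) and to a TATA element (TATAAA or the variant TATAAG). The windows are chr11:32283522-32283671 (plus strand) for Hba-a1, chr11:32296342-32296491 (plus strand) for Hba-a2, chr7:103827929-103828078 (minus strand) for Hbb-bs and chrX:150547267-150547416 (plus strand) for Alas2.
Hba-a1: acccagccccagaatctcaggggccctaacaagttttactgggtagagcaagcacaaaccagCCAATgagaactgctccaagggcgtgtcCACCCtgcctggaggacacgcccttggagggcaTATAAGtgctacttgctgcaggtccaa
Hba-a2: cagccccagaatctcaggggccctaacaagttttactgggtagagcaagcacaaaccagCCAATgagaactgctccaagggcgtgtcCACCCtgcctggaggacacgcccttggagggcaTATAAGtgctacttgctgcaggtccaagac
Hbb-bs: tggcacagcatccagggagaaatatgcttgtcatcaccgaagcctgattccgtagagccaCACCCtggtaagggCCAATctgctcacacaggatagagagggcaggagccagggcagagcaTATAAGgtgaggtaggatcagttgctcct
Alas2: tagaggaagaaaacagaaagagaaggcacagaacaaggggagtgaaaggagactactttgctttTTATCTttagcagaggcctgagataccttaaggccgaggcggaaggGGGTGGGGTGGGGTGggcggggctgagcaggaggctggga
The Hba-a1 and Hba-a2 windows were identical over 147 of 147 aligned bases. All 3 globin windows held a CCAAT box, a CACCC box and the TATA variant with a last G. The CCAAT box lay upstream of the CACCC box in both alpha genes and downstream of it in Hbb-bs. The Alas2 window held AGATAA on its opposite strand, from base -86 to base -81 before the start, and 3 CACCC matches on that strand. No match overlapped another. Of 32851 RefSeq promoter windows of this length, 37.4% held CACCC, 24.5% CCAAT, 16.0% a GATA match and 10.7% a TATA match. A match is a description of the letters only.

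The alpha genes are near copies, which bears on how reads are counted. Their coding sequences are 429 bases long and differ at 1 position, C381T, counted from the first base of the start codon with the Hba-a1 base first. The difference is shown in capitals within coding bases 361 to 401, from GENCODE annotation M21 on chromosome 11.
Hba-a1: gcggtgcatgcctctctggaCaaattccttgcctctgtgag
Hba-a2: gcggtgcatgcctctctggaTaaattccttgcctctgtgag
Of the 75-base windows of the Hba-a1 transcript, 389 of 625 (62.2%) also occur in Hba-a2, and 389 of 480 (81.0%) of those of Hba-a2 occur in Hba-a1. Hbb-bs has a like partner in Hbb-bt, which is not analysed here: their coding sequences of 444 bases differ at 1 position (C417T). A read from a shared stretch has no unique place in the genome, so the split between such copies depends on the untranslated ends and on how the aligner treats the rest. Each level of a single copy below is to be read with that limit.

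Library totals ran from 31996944 to 54594523 counts, and 3 counts, the limit that a count of 0 allows, correspond to 0.055 to 0.0938 CPM, which is the count divided by the library total and rescaled. That limit and the intervals below cover counting error only. Neuronal genes were abundant in every library, with 10 of them (among them Dcx, Tubb3 and Map2) summing to between 8364 and 8852 CPM. Levels per gene are given as nRPKM, the deposited RPKM (reads scaled to gene length and library size) after adjustment by a size factor for each library. Jun, which encodes cJun, stood at 1.75 ± 0.425 nRPKM in QKO, 1.54 ± 0.0818 in TKO and 2.27 ± 0.940 in DKO, against 15.7 ± 0.565 in KO and 14.99 ± 0.0054 in control (SD, n = 2 each), as labelled. The other targeted genes did not follow the labels in this way. Etv1 was at 4.54 ± 0.233 nRPKM in the libraries labelled QKO and 3.74 ± 0.0893 in those labelled TKO, against 2.04 ± 0.0896 in DKO, 2.03 ± 0.372 in KO and 4.88 ± 0.0893 in control. Etv5 was at 4.04 ± 0.0927 in those labelled QKO, 3.84 ± 0.128 in TKO, 3.17 ± 0.118 in DKO, 2.66 ± 0.0256 in KO and 6.98 ± 0.365 in control. Cop1 ran from 3.76 to 4.29 nRPKM in the 4 knockout genotypes and was 4.87 in control. Counts over a whole gene do not show the loss of an exon, so these 3 genes do not check the labels. Xist, the transcript of the inactive X chromosome, was high in DKO 1 and control 1 (1464 to 1840 CPM) and at 0.925 to 1.94 CPM in the other 8 libraries. Within a genotype the 2 libraries differed by more than sampling noise, with a chi-square statistic per degree of freedom of 7.51 to 19.5.

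The transcripts of both alpha globin genes were highest in the DKO brains. Hba-a1 was at 146 and 185 nRPKM in DKO 1 and DKO 2. It was at 76.5 and 94.8 in QKO, 75.8 and 78.2 in TKO, 68.4 and 60.97 in KO, and 63.1 and 73.3 in control. The lowest DKO library was therefore well above the highest of the other 8, which was QKO 2, while the ranges of TKO, KO and control lay close together. Hba-a1 averaged 166 ± 27.5 nRPKM in DKO, 64.7 ± 5.26 in KO and 68.2 ± 7.22 in control (SD, n = 2 each). In edgeR's quasi-likelihood test it was 2.54-fold higher in DKO vs KO (log2 fold change 1.35, SE 0.13, adjusted p = 0.000602) and 2.43-fold higher in DKO vs control (1.28 ± 0.13, adjusted p = 0.000982).

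Hba-a2 was at 251 and 315 nRPKM in DKO. It was at 138 and 173 in QKO, 139.6 and 141 in TKO, 62.1 and 107 in KO, and 113 and 131 in control. The DKO libraries again stood above all others, and KO 1 stood below all others, at a level well under that of KO 2. The group means were 283 ± 45.6 nRPKM in DKO, 84.4 ± 31.4 in KO and 122 ± 12.6 in control (SD, n = 2 each), and the SD in KO was larger relative to its mean than in any other group for this gene. By edgeR Hba-a2 was 3.35-fold higher in DKO vs KO (log2 1.74 ± 0.20, adjusted p = 0.00194) and 2.33-fold higher in DKO vs control (1.22 ± 0.20, adjusted p = 0.0248).

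**Figure D1:**
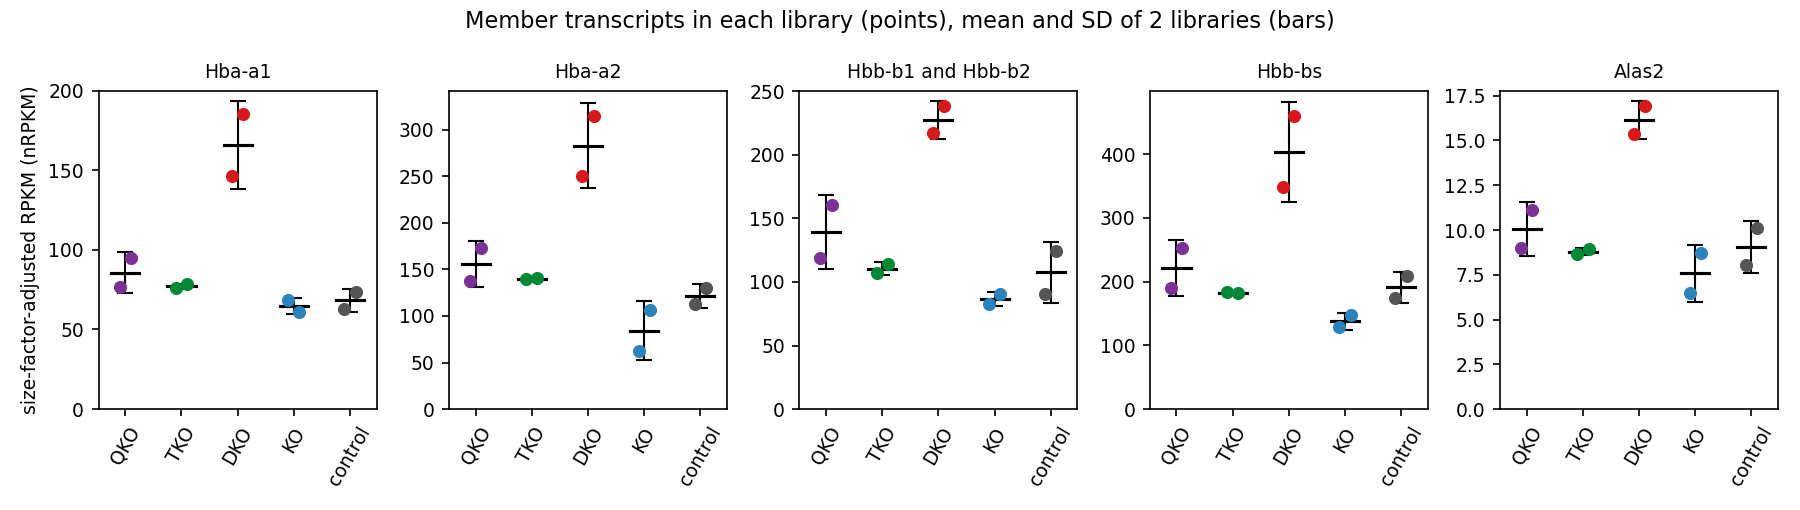
Deposited expression values (nRPKM, linear axes that start at 0) of the 5 measurements in the libraries of each genotype. Points are libraries, horizontal bars the mean and error bars the SD of 2 libraries. For each measurement both DKO points lie above the points of the other 4 genotypes, as for Hba-a1 (146 and 185 in DKO, at most 94.8 elsewhere).

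The adult beta globin genes showed the same pattern. Hbb-bs, one of the paired adult beta genes of the haplotype carried by strains such as C57BL/6, had the highest nRPKM of the members in each library. It was at 348 and 459 nRPKM in DKO, 190.1 and 252 in QKO, 184 and 182 in TKO, 129 and 148 in KO, and 174 and 208 in control. The DKO libraries did not overlap with any other, and the KO libraries were the lowest 2 of the 10. Hbb-bs averaged 404 ± 78.3 nRPKM in DKO, 138 ± 13.4 in KO and 191 ± 24.3 in control (SD, n = 2 each). It was 2.91-fold higher in DKO vs KO (log2 1.54 ± 0.15, edgeR adjusted p = 0.0007) and 2.12-fold higher in DKO vs control (1.08 ± 0.15, adjusted p = 0.0084).

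Hbb-b1 and Hbb-b2, the names of the adult beta genes in the other common haplotype, carried 1 shared measurement. Their nRPKM differed by a constant factor of 1.03, so the Hbb-b1 values are given. Hbb-b1 was at 217 and 238 nRPKM in DKO, 119 and 160.2 in QKO, 107 and 114 in TKO, 82.995 and 90.7 in KO, and 90.6 and 124 in control. The DKO libraries were again the highest, and the ranges of TKO and control overlapped, as did those of KO and control. The shared record was 2.61-fold higher in DKO vs KO (log2 1.38 ± 0.15, edgeR adjusted p = 0.0011) and 2.12-fold higher in DKO vs control (1.08 ± 0.15, adjusted p = 0.00777).

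Alas2, the haem synthesis enzyme of the set, was the least abundant member and had the smallest differences in the comparisons that include DKO. It was at 15.4 and 16.9 nRPKM in DKO, 8.98 and 11.1 in QKO, 8.65 and 8.92 in TKO, 6.46 and 8.69 in KO, and 8.03 and 10.1 in control. Its DKO libraries stood above the other 8, and the ranges of TKO, KO and control overlapped. It averaged 16.1 ± 1.08 nRPKM in DKO, 7.58 ± 1.58 in KO and 9.06 ± 1.45 in control (SD, n = 2 each). Alas2 was 2.13-fold higher in DKO vs KO (log2 1.09 ± 0.15, edgeR adjusted p = 0.00691) and 1.78-fold higher in DKO vs control (0.84 ± 0.15, adjusted p = 0.0421).

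All 5 measurements thus passed the threshold of an adjusted p of 0.05, in the same direction, in both comparisons. Over all 18671 genes tested, 37 (0.198%) were called higher in DKO vs KO and 56 (0.3%) higher in DKO vs control. Both counts include the 6 member genes, with Hbb-b1 and Hbb-b2 counted separately. The 56 also include ID100862145 and ID100503686, unnamed identifiers described below that track a globin gene. The median log2 fold change of the 5 was 1.38 in DKO vs KO and 1.08 in DKO vs control, beside a median of -0.00 over all tested genes in each. Both DKO libraries lay above the other 8 libraries for all 5 measurements, an arrangement that 681 of the tested genes (3.65%) showed, with gaps of 0.45 to 0.63 log2 CPM between the lower DKO library and the highest other one. The 2 comparisons share the DKO libraries, and the counts of the members are not independent of one another, since all 5 may come from the same cells. Leaving out 1 library at a time leaves a single library in a group, and some calls were then lost. In DKO vs KO only Alas2 missed the threshold, without KO 1 (log2 0.89). DKO vs control was less stable, and each measurement but Hba-a1 lost its call in at least 1 such fit. The log2 differences ran from 0.89 (Alas2) to 2.19 (Hba-a2) in DKO vs KO. In DKO vs control they ran from 0.68 (Alas2) to 1.45 (Hba-a1). Calls in DKO vs control were also lost with DKO 1 and control 1 left out, the libraries with high Xist. The log2 differences themselves stayed between 0.68 and 1.33 for the calls lost in those fits.

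When the libraries labelled TKO were set against DKO, which differs from them by ETV1 by label though Etv1 was higher in TKO, the globin transcripts were lower. Hba-a1 averaged 77.0 ± 1.72 nRPKM in TKO and 166 ± 27.5 in DKO (SD, n = 2 each), a log2 fold change of -1.10 ± 0.13 in TKO vs DKO (edgeR adjusted p = 0.00633). Hbb-bs averaged 183 ± 1.39 nRPKM in TKO and 404 ± 78.3 in DKO (-1.14 ± 0.15, adjusted p = 0.0159). The shared Hbb-b1 and Hbb-b2 record averaged 110.4 ± 4.99 in TKO and 228 ± 14.9 in DKO (-1.04 ± 0.15, adjusted p = 0.023). These 3 measurements passed, where 13 of all tested genes (0.0696%) were called lower. The 13 include the 4 member genes that these measurements stand for. Hba-a2 (-1.01 ± 0.20, adjusted p = 0.125) and Alas2 (-0.87 ± 0.15, adjusted p = 0.088) had differences of a like size and did not pass by edgeR. The calls rested on both TKO libraries and were lost when TKO 1 or TKO 2 was left out. Hba-a1 stayed at -1.08 without TKO 1 and -1.13 without TKO 2.

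In the libraries labelled QKO set against DKO, from which they differ by ETV1 and ETV5 by label but have the higher Etv1 and Etv5 counts, Hba-a1 was lower at 85.6 ± 13.0 nRPKM in QKO and 166 ± 27.5 in DKO (SD, n = 2 each; log2 -0.95 ± 0.12, edgeR adjusted p = 0.00615). Hbb-bs was lower at 221 ± 43.9 in QKO and 404 ± 78.3 in DKO (-0.87 ± 0.15, adjusted p = 0.0254). These 2 of 5 passed, where 95 of all tested genes (0.509%), these 2 included, were called lower. Hba-a2 (-0.86 ± 0.20), the shared Hbb-b1 and Hbb-b2 record (-0.71 ± 0.15) and Alas2 (-0.68 ± 0.15) had edgeR adjusted p-values of 0.061 to 0.0963. Hbb-bs missed the threshold without QKO 1 (log2 -0.68, edgeR adjusted p = 0.127) and without DKO 2 (-0.66, adjusted p = 0.0996), and the Hbb-b1 and Hbb-b2 record passed without QKO 2 (-0.93, adjusted p = 0.0218). These comparisons use the same DKO libraries as the ones above.

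**Figure D2:**
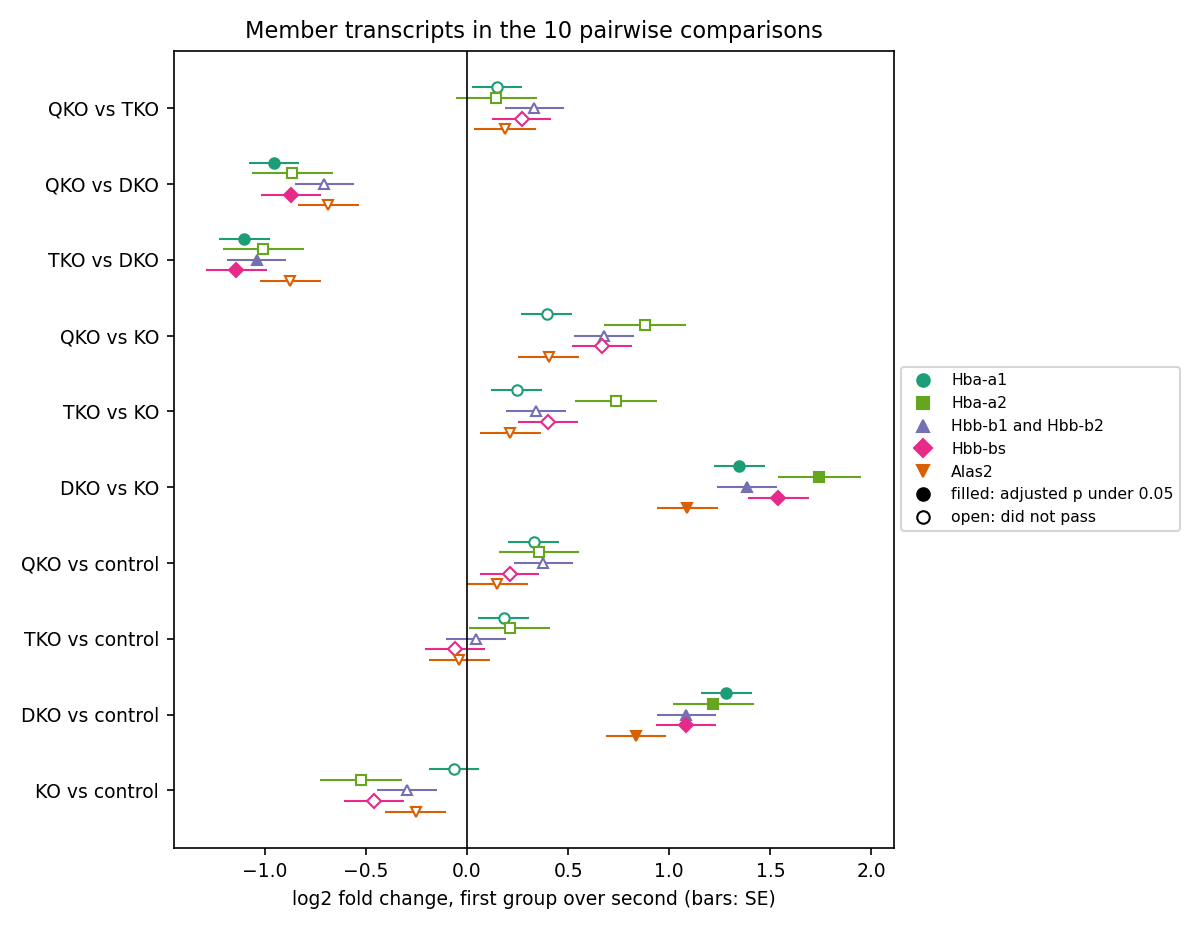
Log2 fold changes of the 5 measurements (horizontal axis, first-named genotype over the second, bars are SE) in the 10 pairwise comparisons of genotypes (vertical axis). Filled symbols had an adjusted p under 0.05 in edgeR's test across all genes. Filled symbols occur in the 4 comparisons that include DKO and in no other.

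Among the 4 genotypes other than DKO no measurement passed in any of the 6 comparisons by edgeR with the filter on low counts and all 10 libraries. Without that filter 1 of the 5 passed in KO vs control, 1 in TKO vs KO and 4 in QKO vs KO, and in fits of only the 4 libraries compared 1, 2 and 2 passed. Calls over all genes also varied among settings that leave out no single library. They ran from 40 to 691 in KO vs control, 62 to 208 in TKO vs KO and 194 to 487 in QKO vs KO. The share of all genes called in each such setting is not given here. In KO vs control the log2 differences were all negative, from -0.52 for Hba-a2 to -0.06 for Hba-a1 (lowest adjusted p 0.276, 2 of 5 with an unadjusted p under 0.05, 0.734% of all tested genes called). The Hba-a2 difference passed at -0.97 (adjusted p = 0.0483) when KO 2 was left out and was closer to 0, at -0.18, without KO 1. In QKO vs KO the differences were all positive, from 0.39 for Hba-a1 to 0.88 for Hba-a2 (lowest adjusted p 0.0558, all 5 with an unadjusted p under 0.05, 1.29% called), and DESeq2 called 1 of the 5. There 2 measurements, the beta globins, passed without QKO 1, and Hba-a2 passed without KO 2 at 1.33. In TKO vs KO they ran from 0.21 to 0.73 (3 with an unadjusted p under 0.05, 0.332% called), and Hba-a2 passed without KO 2 at 1.18 (edgeR adjusted p = 0.0207). TKO vs control gave -0.06 to 0.21 (0.15% called, 0 of 5 with an unadjusted p under 0.05), QKO vs control 0.15 to 0.38 (0.236% called, 2 of 5) and QKO vs TKO 0.14 to 0.33 (0.289% called, 1 of 5). DESeq2 called 0 of the 5 in KO vs control, TKO vs control, QKO vs control, TKO vs KO and QKO vs TKO. A test of any difference among the 5 genotypes called all 5 measurements (edgeR adjusted p 0.000608 to 0.0172), where it called 234 genes in all (1.25%).

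The order of the genotypes by mean nRPKM was DKO, QKO, TKO, control, KO for both alpha genes and for the shared Hbb-b1 and Hbb-b2 record. For Hbb-bs and Alas2 it was DKO, QKO, control, TKO, KO. Of neighbours in these orders, DKO and QKO differed by edgeR's test for Hba-a1 and Hbb-bs, and no other pair of neighbours passed for any member. Together the 5 measurements held 0.0749% and 0.0925% of the counts in the DKO libraries. They held 0.0412% and 0.0526% in QKO, 0.0391% and 0.0410% in TKO, 0.0270% and 0.0316% in KO, and 0.0345% and 0.0419% in control. The transcripts were thus a small share of every library, and leaving them out of the library sizes gave the same number of members called in each comparison.

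The balance among the members moved less than their level. The ratio of alpha to beta globin counts (Hba-a1 and Hba-a2 over Hbb-bs and the shared record) was 0.517 and 0.522 in DKO. It was 0.511 and 0.479 in QKO, 0.544 and 0.546 in TKO, 0.455 and 0.517 in KO, and 0.483 and 0.450 in control. The DKO values lay inside the range of the other libraries, and the TKO values were the highest. With Hbb-bs left out of the beta sum the order changed: the ratio was then highest in DKO 2 (1.88, with 1.64 in DKO 1), and TKO had 1.81 and 1.72 beside 1.74 and 1.47 in control. Alas2 stood at 4.65 and 4.08 counts per 100 globin counts in DKO. It stood at 4.99 and 4.73 in QKO, 4.98 and 5.07 in TKO, 5.46 and 6.23 in KO, and 5.25 and 5.41 in control. The DKO values were the lowest of the 10 libraries and the KO values the highest. Without Hbb-bs the DKO values were still the lowest (8.48 and 7.78), while KO 1 (10.2) was just below the control values (10.23 and 10.4). No test was made on these ratios.

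The split of counts between the near-identical alpha copies, and that between the beta records, set some libraries apart. The likeness in sequence of Hbb-bs to Hbb-b1 and Hbb-b2 was not computed. Hba-a1 held 52.2% of the alpha globin counts in KO 1 (95% Clopper-Pearson interval 50.7 to 53.7%), and 35.0 to 36.9% in the other 9 libraries, including 36.2% in KO 2 (34.7 to 37.7%). KO 1 had 2281 counts for Hba-a1 and 2087 for Hba-a2, while KO 2 had 1470 and 2588. The interval covers counting error only, and KO 1 lies outside the intervals of all other libraries. Such intervals take each read as counted in a single record, which was not checked, and Hbb-b1 and Hbb-b2 carry identical counts. Among the beta records, Hbb-bs held 72.3% of counts in DKO 2 (71.7 to 72.9%) and 72.2% in control 1 (71.3 to 73.1%), against 67.7 to 69.9% in the other 8. With the copies summed, alpha globin was 1.58 higher on the log2 scale in DKO vs KO (edgeR adjusted p = 0.000442) and 1.24 in DKO vs control (adjusted p = 0.00246), and beta globin 1.49 (adjusted p = 0.000767) and 1.08 (adjusted p = 0.00752). Summed alpha globin also passed in TKO vs DKO (-1.04, edgeR adjusted p = 0.0186) and QKO vs DKO (-0.90, adjusted p = 0.0157), as did summed beta globin (-1.11, adjusted p = 0.0173, and -0.82, adjusted p = 0.0312). The differences that involve DKO were thus present in sums that do not depend on the split between the records summed.

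**Figure D3:**
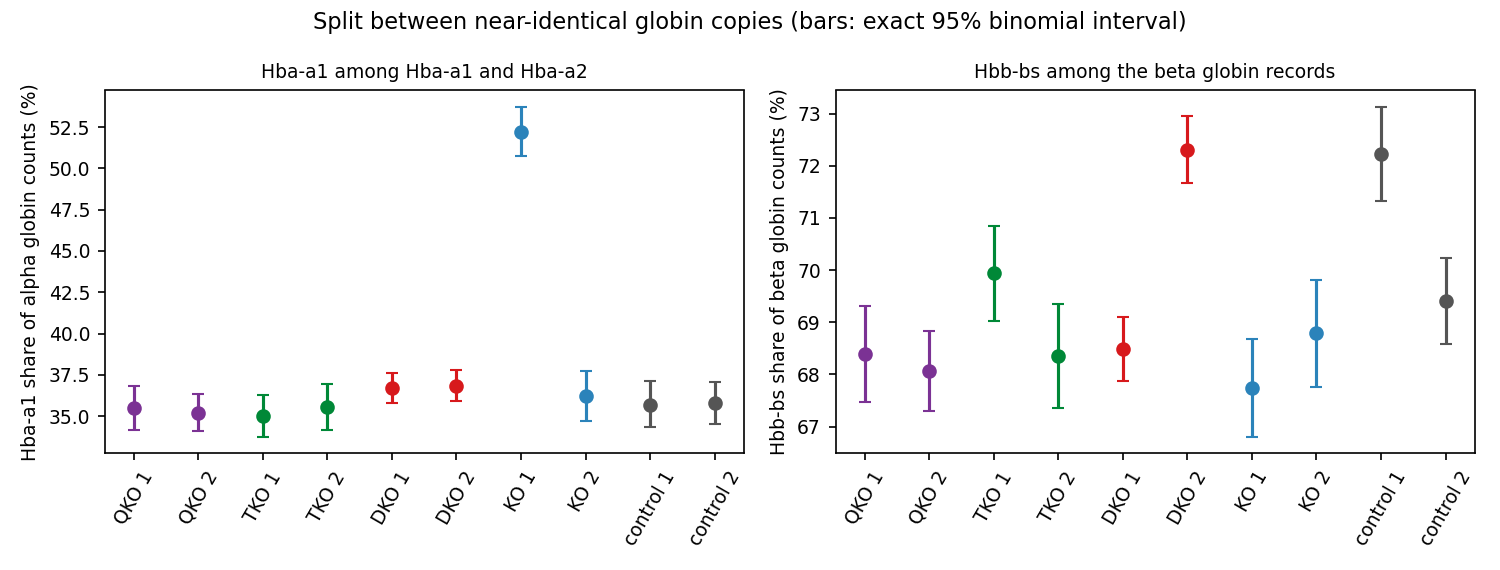
Share of alpha globin counts assigned to Hba-a1 (left) and of beta globin counts assigned to Hbb-bs (right) in each library, in percent, with exact 95% binomial intervals as bars; the vertical axes do not start at 0. KO 1 stands at 52.2% on the left and DKO 2 and control 1 at 72.3% and 72.2% on the right.

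Other globin genes were low or did not pass. The embryonic genes Hba-x (alpha-like), Hbb-y and Hbb-bh1 (beta-like), which primitive red cells express, were at 0.0366 to 0.313, 0.0228 to 0.392 and 0 to 0.125 CPM over the 10 libraries. Their highest counts were 10 for Hba-x and 17 for Hbb-y, and none of the 3 passed the filter on low counts. Of 6 other red cell globin genes in the files 2, Hbq1a and Hbq1b, passed the filter on low counts. Neither was called in any comparison. Among globins outside red cells, Cygb (cytoglobin, of fibroblast-like and some neural cells) was at 10.98 and 11.4 nRPKM in DKO, 9.03 and 8.47 in KO, and 11.1 and 11.9 in control (log2 0.35 ± 0.08 in DKO vs KO, edgeR adjusted p = 0.0974). Ngb (neuroglobin, of neurons) and Mb (myoglobin, of muscle) were not called either.

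The other haem synthesis genes, which most cells express, did not move with Alas2. All 12 were tested and 0 were called in either comparison, with a median log2 fold change of -0.09 in DKO vs KO and -0.04 in DKO vs control. Alas1, the ubiquitous counterpart of Alas2, averaged 11.8 ± 1.35 nRPKM in DKO, 12.1 ± 0.174 in KO and 12.1 ± 0.323 in control (SD, n = 2 each; log2 -0.05 ± 0.09 in DKO vs KO, edgeR adjusted p = 0.823). Fech, which inserts iron into protoporphyrin, was at 12.6 ± 0.0914 in DKO, 10.6 ± 0.908 in KO and 10.3 ± 0.294 in control, and its log2 difference of 0.30 ± 0.08 in DKO vs control did not pass (edgeR adjusted p = 0.255). Abcb10, a mitochondrial transporter tied to haem synthesis, did not pass either. Over the 10 comparisons the list had 1 call: Alad, which joins a pair of 5-aminolevulinate molecules, was higher in QKO vs TKO, at 24.2 ± 2.65 nRPKM in QKO and 14.4 ± 0.724 in TKO (log2 0.74 ± 0.12, edgeR adjusted p = 0.0256).

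Genes of nucleated red cell precursors differed widely in level. Gata1 and Klf1, the transcription factors that switch on globin genes, were low, at 0 to 0.180 and 0.115 to 0.341 CPM, and these 2 were picked out after their values were seen. Of 8 erythroid transcription factor genes 6 were tested and 0 were called (medians of 0.06 in DKO vs KO and 0.02 in DKO vs control). The most abundant, Tal1 (22.3 to 29.6 CPM) and Lmo2 (15.4 to 18.7 CPM), are also expressed in endothelium or neurons. Zfpm1 followed at 13.2 to 16.5 CPM. Of 16 red cell membrane and skeleton genes 13 were tested and 0 were called (medians 0.06 and -0.04), and the most abundant, Cd24a, Add2, Epb41 and Sptb, are expressed in neurons as well. Slc4a1, the anion exchanger band 3 of red cells and also named after its values were seen, was at 5.55 and 3.16 CPM in DKO, 1.37 and 1.82 in KO, and 3.46 and 1.39 in control. Its log2 difference of 1.46 ± 0.41 in DKO vs KO was as large as those of the globins but did not pass (edgeR adjusted p = 0.187), and control 1 lay above DKO 2.

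Of 18 further erythroid genes in the files 15 were tested, and 1 of them, Car2, was called in DKO vs control. Car2, a carbonic anhydrase of red cells that glia also express, was at 13.8 and 13.0 nRPKM in DKO, 12.2 and 10.6 in KO, and 8.51 and 8.96 in control. It was higher in DKO vs control (log2 0.62 ± 0.11, edgeR adjusted p = 0.0431) and in TKO vs control (0.69 ± 0.11, adjusted p = 0.0422). Prdx2, a peroxidase abundant in red cells and neurons, was at 324 ± 16.4 nRPKM in DKO, 295 ± 0.407 in KO and 311 ± 15.1 in control and did not pass. The list medians were 0.22 in DKO vs KO and 0.11 in DKO vs control. Of 11 genes of haem breakdown and iron handling 9 were tested and 0 were called (medians 0.11 and 0.14). Hmox1, the inducible haem oxygenase and named after its values were seen, differed by 0.35 ± 0.16 in DKO vs control (edgeR adjusted p = 0.624), and the ferritin gene Fth1 by 0.20 ± 0.08 (adjusted p = 0.506).

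**Figure D4:**
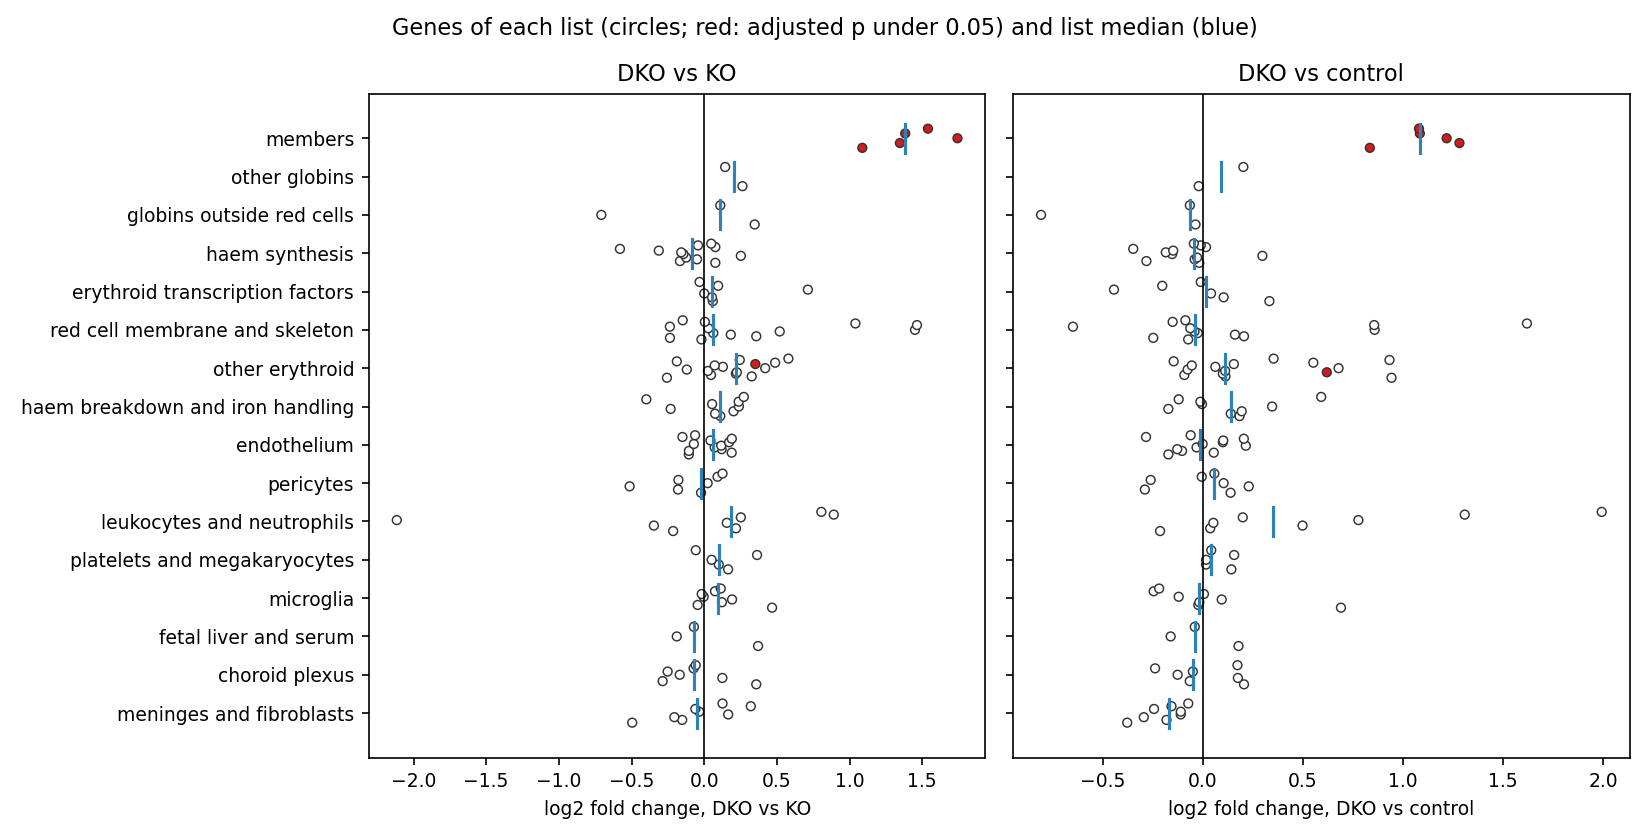
Log2 fold changes (horizontal axes) of every tested gene of the plotted lists (rows) in DKO vs KO (left) and DKO vs control (right); circles are genes, red ones had an adjusted p under 0.05, and blue bars are list medians. The members lie between 0.84 and 1.74 with all circles red, while the other plotted lists, which leave out neuronal and glial genes, have medians between -0.17 and 0.35.

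Markers of the vessels and of other cells that come with blood were set beside the globins. Summed levels of 12 endothelial genes ran from 387 to 429 CPM in DKO, 389.5 to 390.3 in KO and 378 to 414 in control, and none of the 12 was called in the 4 comparisons that include DKO. The same held for 7 pericyte genes, 8 microglial genes, 7 genes of the choroid plexus and 8 of the meninges, all of which were tested. In the other comparisons Cspg4, of the pericyte list, was higher in KO vs control (log2 0.74 ± 0.14, edgeR adjusted p = 0.0402) and lower in QKO vs KO (-0.83 ± 0.14, adjusted p = 0.0157). The pericyte list medians there were -0.07 and 0.06. Of the 8 glial genes, 6 were called higher in KO vs control and 6 lower in QKO vs KO, the directions of Cspg4. Blood leukocyte and neutrophil genes summed to 59.8 to 61.1 CPM in DKO, 47.6 to 55.7 in KO and 55.5 to 58.8 in control, with 8 of 13 tested and 0 called. Most of that sum was Coro1a, and the list's median log2 fold change was 0.19 in DKO vs KO and 0.35 in DKO vs control. This median was larger in TKO vs control (0.81) and in QKO vs control (0.83). The neutrophil genes S100a8 and S100a9, named after their values were seen, were highest in DKO 2, while DKO 1 lay below both QKO and both TKO libraries. In QKO and TKO, S100a8 was at 0.289 and 0.622 CPM and at 0.486 and 0.569 CPM. S100a9 was at 0.315 and 0.742 CPM in QKO and at 1.12 and 0.629 CPM in TKO. S100a8 was at 0.236 and 0.938 CPM in DKO, 0.385 and 0.175 in KO, and 0.184 and 0.250 in control (log2 0.89 ± 0.62 in DKO vs KO and 1.31 ± 0.66 in DKO vs control, edgeR adjusted p = 0.532 and 0.663). S100a9 was at 0.236 and 1.56 CPM in DKO, 0.678 and 0.225 in KO, and 0.161 and 0.250 in control (0.81 ± 0.74 and 1.99 ± 0.86, edgeR adjusted p = 0.642 and 0.575). Neither passed, with differences as large as some of those of the globins. Ptprc, the pan-leukocyte marker CD45, was at 2.42 and 2.31 CPM in DKO, 2.22 and 1.70 in KO, and 1.87 and 2.23 in control. Platelet genes summed to 170 to 181 CPM in DKO, 167 to 168 in KO and 163 to 178 in control, with 5 of 8 tested and 0 called. Serum protein genes stood for the fetal liver, the site of red cell formation at this age. Alb was at 0 to 0.0683 CPM, Serpina1a at 0 in all libraries, Apoa1 at 0.375 to 0.719 CPM and Apoa2 at 0.389 to 1.13 CPM, with 3 of 8 tested and 0 called, while Ttr, which the choroid plexus makes in bulk, held nearly all of that list's sum. Of the brain's own cells, 10 neuronal genes had 0 calls in both comparisons, and of 8 glial genes Gfap was lower in DKO vs KO (log2 -1.959 ± 0.260, edgeR adjusted p = 0.00546) and Olig2 higher in DKO vs control (0.78 ± 0.09, adjusted p = 0.00249). The part that blood left in the vessels at dissection has in the globin differences was not tested.

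The genes whose pattern over the 10 libraries was most like that of Hba-a1 were ranked by Pearson's r of log2 CPM among 15989 genes with a mean of at least 1 CPM, as a description with no test. The other members had r of 0.881 (Hba-a2), 0.958 (the shared Hbb-b1 and Hbb-b2 record), 0.955 (Hbb-bs) and 0.927 (Alas2), and over the 8 libraries without DKO of 0.635, 0.891, 0.774 and 0.625. Outside the members the highest was an identifier without a name in the reference, ID100862145 (0.992), followed by a second such identifier, ID100503686 (0.954). Calb2 (calretinin, a calcium buffer of interneurons, 0.952), Rps7 (a ribosomal protein, 0.948), Dlg4 (the synaptic scaffold PSD-95, 0.927), Acp1 (a phosphatase, 0.920), Mettl21a (0.920), Pygl (the liver-type glycogen phosphorylase, 0.919), Septin6 (a cytoskeletal GTPase, 0.918) and Minar2 (0.918) completed the 10. The 2 DKO libraries stand apart for the members, and for most of these genes r was lower without them. Acp1 had r of 0.0364 over the other 8 libraries and Rps7 0.598, while Dlg4 kept 0.926. Rps7 was at 28.3 and 28.8 CPM in DKO and 9.86 to 15.2 in the other libraries (log2 1.43 ± 0.10 in DKO vs control, edgeR adjusted p = 0.000156), and Acp1 at 8.75 and 8.98 CPM in DKO and 3.55 to 4.52 in the others (1.20 ± 0.13, adjusted p = 0.00141). The members and these genes share libraries and depth, so r says nothing on shared control.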

How the data were processed

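The deposited files hold, per Entrez gene identifier, whole-number read counts and a size-factor-adjusted RPKM (nRPKM), per the file headers. Reads were aligned with GSNAP to NCBIM37, per the submitters' processing notes. No source used here states the annotation release, the strand handling or the treatment of reads shared by copies. Names and promoters came from RefSeq (GRCm38.p6, 24998 of 28059 identifiers named, 89.1%) and coding sequences from GENCODE M21. Coordinates are those of RefSeq, not of the authors' build.

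The deposited counts entered edgeR 4.0.16 (R 4.3.3). Its quasi-likelihood test was run with TMM scaling and filterByExpr (18671 genes kept, 9388 set aside), on 1 fit of the 5 genotype means to the 10 libraries (5 residual degrees of freedom, common biological coefficient of variation 0.0821). Benjamini-Hochberg adjustment covered every tested gene. Calls needed an adjusted p under 0.05. SE derives from the F statistic. CPM is the count over the library total, and nRPKM levels are mean ± SD. The fit was also run on simulated data, and the outcome is not reported here. DESeq2 1.42.0, RLE scaling, no filter, fits of 4 libraries, leaving out libraries, summed copies and library sizes without the members were alternatives.

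The members and the lists of related genes were chosen with earlier results of these data known. Beyond members, genes were named if called in any of the 10 comparisons, if among the 4 most abundant of a list, or if among the 10 most like Hba-a1; exceptions are stated or given as markers. Of the list symbols, Ahsp matched no identifier, and Hbb-bt and Hbb-bh0 are not analysed here. A result for 1 gene of the further erythroid list is not reported here.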

Additional observations from a re-analysis of the deposited data

How the results depend on the processing

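Library depth did not limit the members, which had at least 661 counts each; 2 libraries per genotype did. No paired analysis was possible because the labels carry no replicate numbers, litters or lanes. RLE scaling and library sizes without the members changed no count of members called by over 1.5 times. Calls over all genes also moved among settings that leave out no single library. They ran from 40 to 691 in KO vs control and from 194 to 487 in QKO vs KO. The share of all genes called in each setting is not given here, so the counts below are not a result about the members alone. Without the filter on low counts the measurements called, of 5, were 1 in KO vs control, 1 in TKO vs KO, 4 in QKO vs KO, 5 in TKO vs DKO and 5 in QKO vs DKO. With only the 4 libraries compared they were 1 in KO vs control, 2 in TKO vs KO, 2 in QKO vs KO, 5 in TKO vs DKO and 0 in QKO vs DKO. Without the libraries with high Xist they were 3 in QKO vs KO, and calls were lost in DKO vs control, where each group kept a single library. With copies summed they were 2 in QKO vs KO and 4 in QKO vs DKO. A summed record counts there for both measurements in it, so the 4 are summed alpha and summed beta globin. By DESeq2 1 of the 5 passed in QKO vs KO. Leaving out 1 library, which leaves a single library in a group, changed which measurements passed in several comparisons. These were DKO vs control, DKO vs KO, KO vs control, TKO vs KO, QKO vs KO, TKO vs DKO and QKO vs DKO. The causes were not tested, beyond the smaller number of samples in fits that leave libraries out.

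Differences close to 0 changed sign in 11 cases, none of them called. In TKO vs control the shared Hbb-b1 and Hbb-b2 record was 0.045 in the main test and -0.17 without the high-Xist libraries. With copies summed, beta globin, which then includes Hbb-bs, was -0.028. That case sets a sum against the shared record and is not a change of the record itself. The others came from leaving out 1 library, where Hba-a1 ran from -0.18 to 0.037 in KO vs control, the shared record from -0.17 to 0.29, Hbb-bs from -0.18 to 0.074 and Alas2 from -0.19 to 0.13 in TKO vs control, Alas2 from -0.0044 to 0.33 in QKO vs control, and Hba-a1 from -0.0073 to 0.30 and Hba-a2 from -0.019 to 0.30 in QKO vs TKO. No member difference in a comparison that includes DKO changed sign. Called genes over all genes, in the settings that leave out no single library, ran from 63 to 336 in DKO vs KO (106 in the main test), 35 to 225 in DKO vs control (79), 15 to 159 in TKO vs DKO (17), 28 to 318 in QKO vs DKO (130), 40 to 691 in KO vs control (137), 22 to 122 in QKO vs control (44), 28 to 511 in TKO vs control (28), 194 to 487 in QKO vs KO (240), 62 to 208 in TKO vs KO (62), 53 to 160 in QKO vs TKO (54) and 227 to 862 for any difference (234).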

Other observations

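Both unnamed identifiers that ranked as most like Hba-a1 track a globin gene within each library. The count of ID100503686 was between 94.97% and 96.4% of the Hbb-bs count in the 10 libraries. The count of ID100862145 was between 62.5% and 73.0% of the Hba-a1 count, and it held 37.7% of the alpha globin counts of Hba-a1 and Hba-a2 in KO 1, against 22.2 to 26.1% in the other 9 libraries. Neither identifier is named in the reference used here, and neither was counted among the globins.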
